A study of Mus musculus with 10 samples.

Results

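The genes described here are 39 mouse genes that mark macrophages and monocytes of the lung, chosen from a written list by gene name, and all 39 were found among the 27670 genes named on the array. The list holds 18 genes of alveolar macrophages, 9 genes of interstitial macrophages and monocytes, and 12 genes shared by macrophages and other myeloid cells. Total RNA of whole lung was measured on 10 one-colour Agilent arrays, 5 of p53-null mice and 5 of wild-type mice, both of strain C57BL/6J per the labels. All mice were males of 8 weeks that had breathed saline aerosol for 30 min before the lungs were taken, so both groups carry the saline exposure. The labels do not name the p53 allele. The design calls the 5 samples of each genotype biological replicates.

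Alveolar macrophages live on the air side of the alveolar wall, where they clear inhaled particles, bacteria and spent surfactant. They depend on the growth factor GM-CSF and on the lipid-sensing nuclear receptor PPARgamma. Interstitial macrophages lie in the lung tissue itself and, like blood monocytes, carry the M-CSF receptor and chemokine receptors. In whole lung a lower signal of such a gene cannot be told apart between fewer cells and less RNA per cell, and no sorted cells were measured.

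A level below is the log2 of a probe's signal minus the 75th percentile of its array, and levels of different genes are not compared. A gene was tested if its probe was well above background on at least 5 of the 10 arrays, which held for 21108 genes and for all 39 members. Each member's probe was in fact well above background on all 10 arrays, so signal of all 39 genes was found in every lung, whichever cells it came from. A gene was called where limma's adjusted p was under 0.05. By that rule 3 members were higher in p53-null lung, Cx3cr1, Csf1r and Car4, against 4.60% of all genes tested, and 1 member, Marco, was lower, against 2.89% of all genes tested. In sum 10.3% of the members and 7.49% of all genes tested were called. The median log2 difference, p53-null minus wild-type, was 0.18 over the members and 0.05 over all genes tested, and 28 of 39 members (71.8%) were positive, against 56.3% of all genes tested. By list, Cx3cr1 and Csf1r are interstitial macrophage and monocyte members, and Car4 (higher) and Marco (lower) are alveolar macrophage members.

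The 5 arrays of each group were not equally like one another. Wild-type array 5 stood apart, since leaving it out raised the calls over all genes to 6618, against 1582 with all arrays. The arrays lay on 6 slides, and only 1 slide held both groups (p53-null array 2 and wild-type array 4), so slide and genotype are largely confounded. The slide numbers form a lower and a higher range, and p53-null array 2 and wild-type arrays 3 and 4 are in the higher one. Over all genes limma called 16 within the lower range and 0 within the higher. A member that missed the threshold within a range is therefore not a result about that member. Wild-type array 3 was scanned alone on the second scan day, so blocking scan day gives the same fit as leaving that array out. It also had 719 outlier-flagged spots, against 51 to 137 on the other arrays, and 12 saturated spots, against 0 to 3. The probe for Trp53 that is printed in 10 spots read -3.15 to -2.66 in p53-null lungs and -2.22 to -1.43 in wild-type lungs (log2 difference -1.28 ± 0.16 SE, limma adjusted p = 0.00589 over all probes), while its other probe did not pass the test (0.31 ± 0.28 SE). Markers of other leukocytes were higher in p53-null lung in this bulk RNA: limma called 7 of 11 neutrophil, 8 of 10 B cell, 7 of 12 T and NK cell and 4 of 10 dendritic cell markers higher and none of these lower.

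Of the 9 interstitial macrophage and monocyte genes 2 were called higher and none lower (22.2%, against 7.49% of all genes tested). Limma's unadjusted p was under 0.05 for 4 of them, all higher (44.4%, against 27.6% of all genes tested). Their differences were positive in 8, and their median was 0.26. Of the 18 alveolar macrophage genes 1 was called higher and 1 lower (11.1%). Limma's unadjusted p was under 0.05 for 2 higher and 3 lower (27.8%). Their differences were positive in 11, and their median was 0.16. Of the 12 shared genes none was called by limma, 3 had an unadjusted p under 0.05, all higher (Cd68, Fcer1g and Clec7a), which is 25% against 27.6% of all genes tested, 9 differences were positive, and their median was 0.18. No test was made between the subsets. Within the slide that held both groups (1 array each, no test) the medians were 0.04 for interstitial macrophage and monocyte genes, -0.16 for alveolar macrophage genes and -0.11 for shared genes, and 16 of the 39 members were positive.

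**Figure D1:**
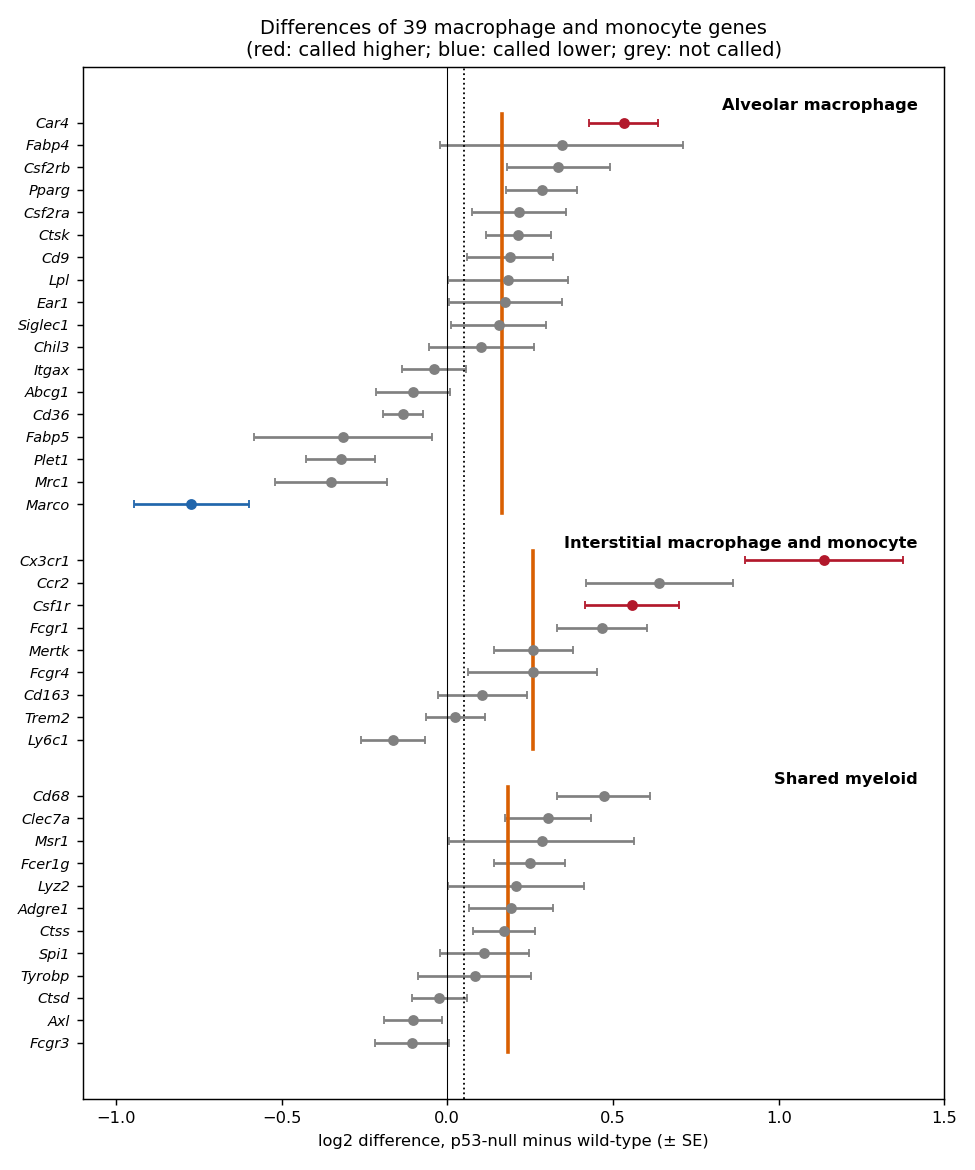
Each point is a gene's log2 difference, p53-null minus wild-type, with its SE over 5 arrays a group, and red and blue points passed limma's test. The orange line is the median of each subset (0.16, 0.26 and 0.18 from top to bottom), the dotted line the median of all genes tested (0.05), and the points spread from -0.77 for Marco to 1.14 for Cx3cr1.

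The promoters of the called members that the RefSeq promoter table holds are shown, with that of Fcgr1, an Fc receptor gene with a called probe. They are the 250 bases before the gene's start on GRCm38.p6, written on the gene's own strand, with the GAGGAA core of the sites bound by PU.1, the transcription factor that macrophages require, in capitals (on either strand, so also as TTCCTC).
Marco (chr1:120505025-120505274, minus strand): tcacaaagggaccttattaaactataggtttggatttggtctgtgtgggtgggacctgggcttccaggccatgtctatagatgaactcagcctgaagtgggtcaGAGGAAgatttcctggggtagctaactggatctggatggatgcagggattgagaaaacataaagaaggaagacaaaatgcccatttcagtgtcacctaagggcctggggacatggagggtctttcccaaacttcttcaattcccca
Car4 (chr11:84957504-84957753, plus strand): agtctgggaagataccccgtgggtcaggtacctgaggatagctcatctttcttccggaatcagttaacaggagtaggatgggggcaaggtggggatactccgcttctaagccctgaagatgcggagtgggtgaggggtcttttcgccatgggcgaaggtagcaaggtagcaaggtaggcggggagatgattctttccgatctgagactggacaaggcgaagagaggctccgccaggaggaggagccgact
Cx3cr1 (chr9:120068297-120068546, minus strand): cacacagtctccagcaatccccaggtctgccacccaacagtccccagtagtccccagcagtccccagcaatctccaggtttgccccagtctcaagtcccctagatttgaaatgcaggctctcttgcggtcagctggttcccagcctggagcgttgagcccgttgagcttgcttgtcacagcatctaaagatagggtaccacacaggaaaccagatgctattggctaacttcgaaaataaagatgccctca
Fcgr1 (chr3:96293970-96294219, minus strand): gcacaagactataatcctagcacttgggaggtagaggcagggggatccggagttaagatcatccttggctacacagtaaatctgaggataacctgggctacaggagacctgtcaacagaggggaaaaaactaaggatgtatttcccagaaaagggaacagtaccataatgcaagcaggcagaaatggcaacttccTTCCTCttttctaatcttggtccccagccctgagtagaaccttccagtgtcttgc
The core occurs once upstream of Marco, at -146, and once upstream of Fcgr1, at -55, and these windows of Car4 and Cx3cr1 do not hold it. The window of Ccr2, which also has a called probe and is not shown, does not hold it either. Of the 28 members with an entry 14 (50%) held the core in this window, against 25.9% of 27025 genes. The core is short, and a match is not a bound site. The motif CACGTG occurred in 1 of the 28 members, Ctsd, which is 3.57%, against 6.86% of all genes. The members without an entry were Siglec1, Fabp4, Lpl, Adgre1, Abcg1, Tyrobp, Csf2rb, Fabp5, Msr1, Csf1r and Spi1.

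Among the chemokine receptors, Cx3cr1, the receptor for fractalkine that marks patrolling monocytes and part of the interstitial macrophages, had the largest difference of any member. Its levels were -1.80, -2.15, -2.19, -2.11 and -1.95 in p53-null lungs 1 to 5 and -2.80, -3.42, -4.03, -2.68 and -2.95 in wild-type lungs 1 to 5. The lowest p53-null lung lay above the highest wild-type lung, and wild-type lung 3 was the lowest of all. Cx3cr1 was 2.20-fold higher in p53-null lung (log2 difference 1.14 ± 0.24 SE, limma adjusted p = 0.0282). Within the lower range of slide numbers its difference was 1.05 and within the higher range 1.20, neither past the threshold, and between the arrays of the slide with both groups it was 0.53. A second, dimmer Cx3cr1 probe, well above background on 5 p53-null and 3 wild-type arrays, gave 0.49 ± 0.32 SE (limma adjusted p = 0.361 over all probes), and the mean of both probes gave 0.81 (limma adjusted p = 0.0534).

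Ccr2, the receptor for the chemokine CCL2 by which monocytes leave the bone marrow, missed the threshold on its brighter probe. Its levels were 0.43, 0.15, 0.27, -0.16 and 0.27 in p53-null lungs and -0.08, -0.37, -0.91, 0.11 and -0.98 in wild-type lungs. The groups overlap through p53-null lung 4 and wild-type lungs 1 and 4, and the difference was 0.64 ± 0.22 SE (limma adjusted p = 0.0996). A second Ccr2 probe read -3.75, -3.70, -3.74, -4.19 and -3.94 in p53-null lungs and -4.49, -4.86, -5.89, -4.32 and -5.30 in wild-type lungs. On that probe the groups do not overlap and the difference passed limma's test over all probes (1.10 ± 0.27 SE, adjusted p = 0.0424). Between the arrays of the slide with both groups the brighter probe differed by only 0.04.

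**Figure D2:**
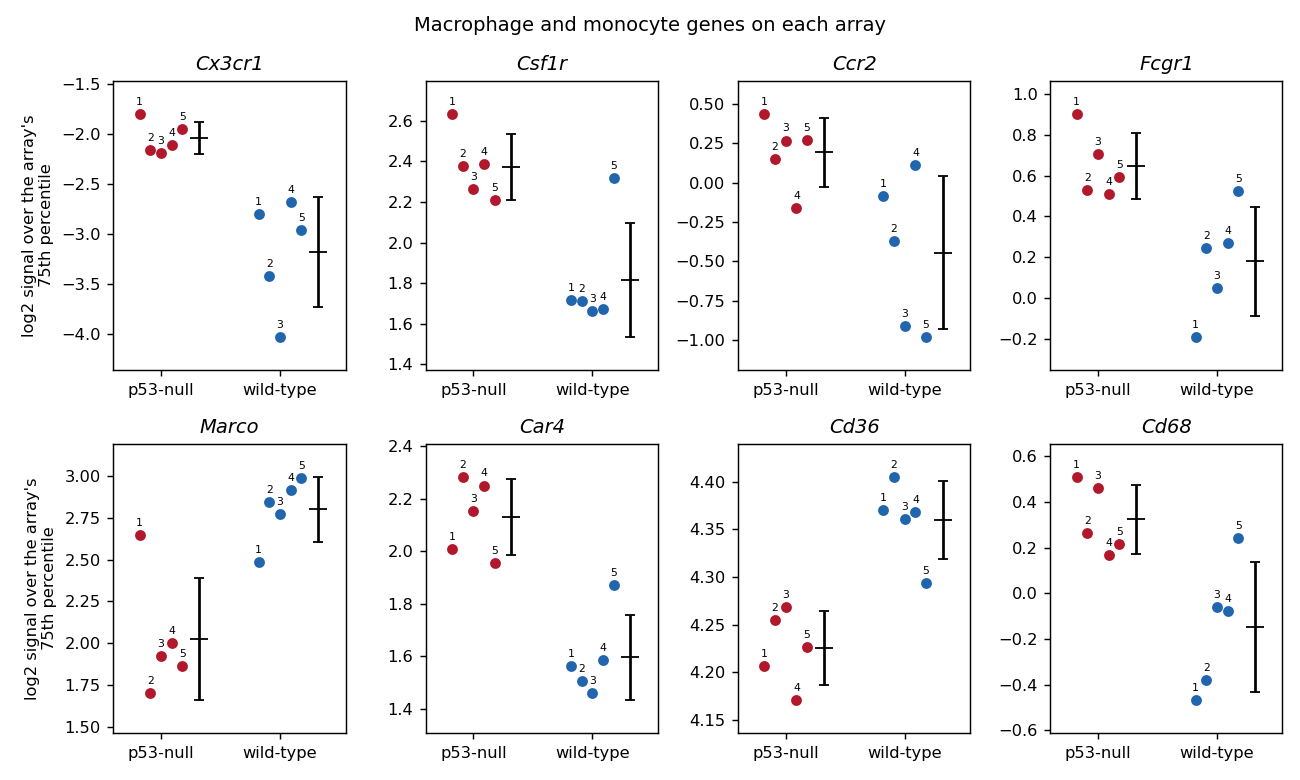
Each point is 1 array, numbered by replicate, with p53-null on the left and wild-type on the right, the y axis is the log2 signal over the array's 75th percentile, and the bar is the group mean with its SD (n = 5). Cx3cr1 and Car4 of the p53-null arrays lie above every wild-type array, Cd36 below, and wild-type array 5 is the highest wild-type array for Csf1r (2.32), Car4 (1.87), Fcgr1 (0.53) and Cd68 (0.24).

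Of the growth factor receptors, Csf1r, which binds M-CSF and sustains monocytes and most tissue macrophages, was called higher. Its levels were 2.63, 2.38, 2.26, 2.39 and 2.21 in p53-null lungs and 1.72, 1.71, 1.66, 1.67 and 2.32 in wild-type lungs. All wild-type lungs but number 5 lay well below every p53-null lung, and wild-type lung 5 lay among them. The difference was 0.56 ± 0.14 SE (1.47-fold, limma adjusted p = 0.0460), and without wild-type array 5 it was 0.68 (adjusted p = 0.00122). Within the lower range of slide numbers it was 0.46 and within the higher range 0.71, neither past the threshold, and between the arrays of the slide with both groups it was 0.70. A second Csf1r probe gave 0.51 ± 0.12 SE (limma adjusted p = 0.0373 over all probes), and another, dimmer one gave -0.11 ± 0.18 SE. The call of Csf1r was lost with the mean of its 3 probes (0.32, limma adjusted p = 0.187), with the arrays scaled to their median (0.49, adjusted p = 0.0818) and with any 1 array other than wild-type array 5 left out.

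The receptor of GM-CSF was not called for either chain. Csf2ra, the binding chain, differed by 0.22 ± 0.14 SE, and Csf2rb, the signalling chain, by 0.34 ± 0.16 SE (limma adjusted p = 0.197). Other Csf2rb probes gave -0.30 ± 0.16 SE and 0.20 ± 0.29 SE, and mouse has a near-identical gene beside it, Csf2rb2, so its signal is uncertain. Pparg, which GM-CSF induces in alveolar macrophages, had levels of 0.78, 0.58, 0.79, 0.59 and 0.57 in p53-null lungs and 0.20, 0.31, 0.30, 0.36 and 0.72 in wild-type lungs. Only wild-type lung 5 reached the p53-null levels, and the difference was 0.29 ± 0.11 SE (limma adjusted p = 0.122). Spi1, which encodes PU.1, differed by 0.11 ± 0.13 SE.

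The scavenger receptor Marco, by which alveolar macrophages bind bacteria and particles, was the member called lower. Its levels were 2.65, 1.70, 1.92, 2.0 and 1.86 in p53-null lungs and 2.49, 2.84, 2.77, 2.91 and 2.98 in wild-type lungs. All p53-null lungs but number 1 lay below every wild-type lung, and p53-null lung 1 lay above wild-type lung 1. In p53-null lung Marco averaged 2.03 ± 0.36 and in wild-type lung 2.80 ± 0.19 (SD, n = 5 each), a log2 difference of -0.77 ± 0.17 SE or 0.59-fold (limma adjusted p = 0.0330). Its difference was -0.66 within the lower and -1.14 within the higher range of slide numbers, neither past the threshold, and -1.21 between the arrays of the slide with both groups.

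The other receptors for particles, lipoproteins and sugars were not called. Msr1, the class A scavenger receptor that macrophages of many tissues share, differed by 0.29 ± 0.28 SE, opposite in sign to Marco, and its other probes gave 0.43 ± 0.26 SE and 0.21 ± 0.22 SE. Mrc1, the mannose receptor, differed by -0.35 ± 0.17 SE (limma adjusted p = 0.209). Cd163, the receptor for haptoglobin-bound haemoglobin, differed by 0.11 ± 0.13 SE and Siglec1, which binds sialic acid, by 0.16 ± 0.14 SE, or by 0.51 ± 0.46 SE on its second probe. Clec7a, the fungal beta-glucan receptor Dectin-1, had levels of 2.25, 2.19, 2.26, 1.96 and 2.27 in p53-null lungs and 1.72, 1.60, 1.95, 2.28 and 1.87 in wild-type lungs. Wild-type lung 4 was the highest of all 10 and p53-null lung 4 the lowest of its group, and the difference was 0.30 ± 0.13 SE (limma adjusted p = 0.165).

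Cd36, a fatty acid and lipoprotein receptor of macrophages that lung capillary endothelium and adipocytes also express, had a narrow spread. Its levels were 4.21, 4.25, 4.27, 4.17 and 4.23 in p53-null lungs and 4.37, 4.40, 4.36, 4.37 and 4.29 in wild-type lungs. The groups do not overlap, with the p53-null lungs lower, but the step was small (-0.13 ± 0.06 SE) and missed the threshold (limma adjusted p = 0.178). A second Cd36 probe gave -0.35 ± 0.15 SE and did overlap through wild-type lung 5. Over all genes tested the groups did not overlap in 5.45% with p53-null higher and in 3.88% with p53-null lower, and among the members in 3 (Cx3cr1, Car4 and Fcer1g) and 1 (Cd36).

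The Fc receptors, which bind antibody-coated particles, were led by Fcgr1, the high-affinity receptor CD64 of macrophages and monocytes. Its levels were 0.90, 0.53, 0.71, 0.51 and 0.59 in p53-null lungs and -0.19, 0.24, 0.05, 0.27 and 0.53 in wild-type lungs. The groups meet at wild-type lung 5, which lay beside p53-null lungs 2 and 4, and the difference was 0.47 ± 0.14 SE (limma adjusted p = 0.0652). A second Fcgr1 probe read -2.61 to -2.19 in p53-null lungs and -3.20 to -2.71 in wild-type lungs, with no overlap, and passed limma's test over all probes (0.53 ± 0.13 SE, adjusted p = 0.0385). Counted by probe, the members had 6 called higher and 1 lower of 63 tested, against 4.01% and 3.11% of all probes tested: one probe each of Cx3cr1, Car4, Ccr2 and Fcgr1 and a pair for Csf1r were higher, and Marco's was lower.

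Fcer1g, the signalling chain that Fc receptors share, had levels of 2.35, 1.88, 1.89, 1.88 and 1.90 in p53-null lungs and 1.62, 1.67, 1.74, 1.79 and 1.84 in wild-type lungs. The groups do not overlap, but p53-null lungs 2 to 5 lay just above wild-type lung 5 and lung 1 carried much of the difference of 0.25 ± 0.11 SE (limma adjusted p = 0.165). Its second probe overlapped and gave 0.15 ± 0.11 SE. Fcgr4, a receptor of monocytes and neutrophils, differed by 0.26 ± 0.20 SE and Fcgr3, a low-affinity receptor, by -0.11 ± 0.11 SE, with 0.12 ± 0.13 SE on its second probe. Tyrobp, the adaptor also known as DAP12, differed by 0.08 ± 0.17 SE. Trem2, a lipid-sensing receptor that signals through Tyrobp, differed by 0.02 ± 0.09 SE on its brighter probe and by 0.72 ± 0.21 SE (limma adjusted p = 0.0681 over all probes) on the other, so its probes disagree.

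Mertk and Axl encode related receptor kinases by which macrophages take up dying cells. Neither was called, with differences of 0.26 ± 0.12 SE for Mertk (limma adjusted p = 0.190) and -0.10 ± 0.09 SE for Axl.

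Of the lysosomal genes, Cd68, a glycoprotein of macrophage lysosomes, came nearest to the threshold. Its levels were 0.51, 0.27, 0.46, 0.17 and 0.22 in p53-null lungs and -0.46, -0.38, -0.06, -0.08 and 0.24 in wild-type lungs. Only wild-type lung 5 reached the p53-null range, and the difference was 0.47 ± 0.14 SE (limma adjusted p = 0.0680). The Cd68 probe, at chr11:69746386-69746445 on mm7, lies 75.2 kb from the Trp53 probe printed in 10 spots, so the effect of linked sequence around the p53 allele and that of p53 loss cannot be told apart for this gene. Ctss, an elastin-degrading cysteine protease that also acts in antigen presentation, had levels of 5.37, 5.00, 5.22, 5.14 and 5.17 in p53-null lungs and 4.87, 4.96, 5.17, 5.12 and 4.93 in wild-type lungs. Its groups overlap broadly, and the difference was 0.17 ± 0.09 SE (limma adjusted p = 0.262).

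Ctsk, a collagen-degrading protease, differed by 0.21 ± 0.10 SE (limma adjusted p = 0.186) and Ctsd, the main aspartic protease of lysosomes, by -0.02 ± 0.08 SE, or by 0.18 ± 0.10 SE on its second probe. Lyz2, lysozyme of macrophages, neutrophils and alveolar type 2 cells, differed by 0.21 ± 0.21 SE on its brighter probe and by -0.30 ± 0.10 SE on the other, and neither passed. Lyz2 has a near-identical copy, Lyz1, so its signal is uncertain. Adgre1, an adhesion receptor long used to mark mouse macrophages, differed by 0.19 ± 0.13 SE, and its second probe by 0.15 ± 0.27 SE.

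Car4, a membrane-bound carbonic anhydrase of alveolar macrophages that lung capillary endothelium also expresses, was the alveolar macrophage gene called higher. Its levels were 2.01, 2.28, 2.15, 2.25 and 1.96 in p53-null lungs and 1.56, 1.51, 1.46, 1.59 and 1.87 in wild-type lungs. The groups do not overlap, with wild-type lung 5 nearest to the p53-null lungs, and Car4 was 1.45-fold higher in p53-null lung (log2 difference 0.53 ± 0.10 SE, limma adjusted p = 0.0236). Within the lower range of slide numbers the difference was 0.44 and within the higher range 0.76, neither past the threshold, and between the arrays of the slide with both groups it was 0.70. The Car4 probe lies on chromosome 11, as Trp53 does, 15.4 Mb from the Trp53 probe printed in 10 spots on mm7. Whether sequence linked to the p53 allele reaches Car4 is not known from the labels, and its effect was not tested. Of 11 lung endothelial markers limma called none higher and 1 lower, Plvap (-0.40 ± 0.09 SE, adjusted p = 0.0296). Of the 11 differences 4 were positive, up to 0.65, and 7 were negative. The groups did not overlap in 1 marker with p53-null higher (5.45% of all genes tested) and in 1 with p53-null lower (3.88%). The mean level of the 11 ranged from -0.16 to 0.09 in p53-null lungs and from -0.0031 to 0.06 in wild-type lungs. The part of either cell type in the Car4 signal was not tested.

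Of the other alveolar macrophage identity genes, Plet1, a surface protein of alveolar macrophages and some epithelia, had levels of 3.18, 3.42, 3.44, 3.36 and 3.60 in p53-null lungs and 3.57, 3.64, 3.97, 3.78 and 3.66 in wild-type lungs. Only p53-null lung 5 reached the wild-type range, and the difference was -0.32 ± 0.10 SE (limma adjusted p = 0.0851), while its second probe gave 0.04 ± 0.20 SE. Itgax, the integrin CD11c of alveolar macrophages and dendritic cells, differed by -0.04 ± 0.10 SE, and its second probe by 0.38 ± 0.22 SE. Chil3, the chitinase-like protein Ym1, differed by 0.10 ± 0.16 SE and Ear1, a ribonuclease of eosinophils and alveolar macrophages, by 0.17 ± 0.17 SE. Both have near-identical family members and are uncertain as single genes. Cd9, a tetraspanin found on many cell types, differed by 0.19 ± 0.13 SE, with wild-type lung 5 the highest of all lungs at 5.36, and by -0.03 ± 0.20 SE on a second probe.

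Among the genes of lipid handling, Fabp4, a fatty acid carrier of alveolar macrophages, adipocytes and capillary endothelium, had levels of 5.40, 3.95, 5.42, 4.65 and 4.58 in p53-null lungs and 3.71, 5.13, 4.09, 4.19 and 5.15 in wild-type lungs. It is shown by array because of this spread, which was seen in the data. The highest 4 lungs were p53-null lungs 1 and 3 and wild-type lungs 2 and 5, and the difference was 0.35 ± 0.37 SE (limma adjusted p = 0.583), with 0.13 ± 0.33 SE and 0.17 ± 0.43 SE on its other probes. The mean level of 9 adipocyte markers, each centred over the 10 arrays, was 0.79, -0.66, 1.07, -0.14 and -0.08 in p53-null lungs and -0.88, 0.59, -0.61, -0.35 and 0.26 in wild-type lungs. The same 4 lungs were the only ones above 0 for these markers.

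Limma called 1 of the 9 adipocyte markers higher, Lep (2.03 ± 0.46 SE, adjusted p = 0.0328), and none lower. Lpl, the lipase that releases fatty acids from lipoproteins, was highest in p53-null lung 3 (4.32) and differed by 0.18 ± 0.18 SE, and its second probe by -0.11 ± 0.15 SE. The part of fat tissue in Fabp4 and Lpl was not tested. Fabp5, the other fatty acid carrier of the list, differed by -0.31 ± 0.27 SE and did not share the order of Fabp4, since wild-type lung 2 was its highest and wild-type lung 5 its lowest. Abcg1, which exports cholesterol from macrophages, differed by -0.10 ± 0.11 SE.

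**Figure D3:**
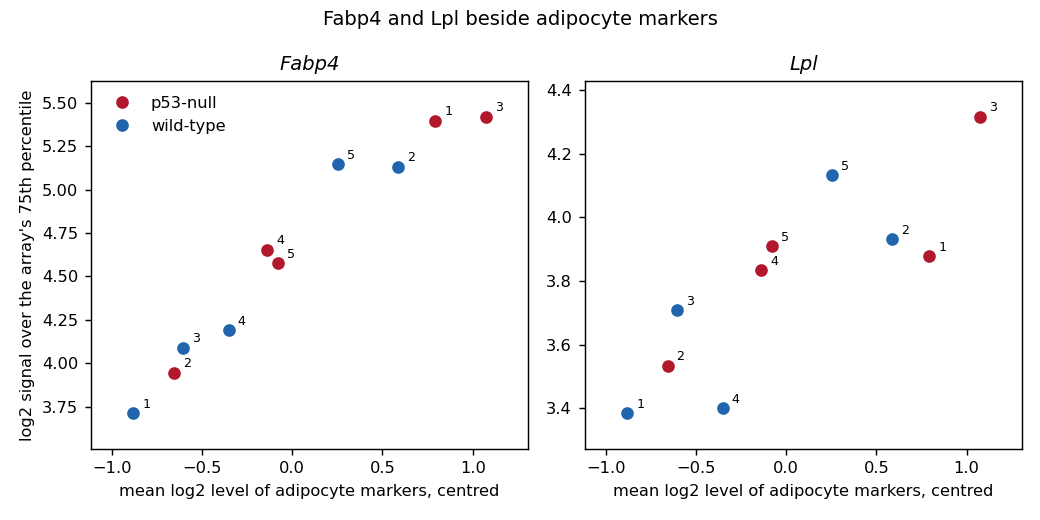
Each point is 1 array, numbered by replicate, with red for p53-null and blue for wild-type. The x axis is the mean log2 level of 9 adipocyte markers, each centred over the 10 arrays, and the y axis the log2 signal of Fabp4 (left) or Lpl (right) over the array's 75th percentile, and p53-null arrays 1 and 3 and wild-type arrays 2 and 5 lie to the right of 0.

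Ly6c1, a surface protein of monocytes and of capillary endothelium, was the interstitial macrophage and monocyte gene with a negative difference, -0.16 ± 0.10 SE, and its second probe gave -0.35 ± 0.13 SE (limma adjusted p = 0.118 over all probes). Ly6c2, the monocyte gene proper, is nearly identical, so the split of signal between them is uncertain.

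Summed by array, the 9 interstitial macrophage and monocyte genes, each centred over the 10 arrays, had mean levels of 0.38, 0.11, 0.21, 0.06 and 0.16 in p53-null lungs and -0.12, -0.23, -0.37, -0.06 and -0.13 in wild-type lungs, with no overlap. These means include the called Cx3cr1 (1.14) and Csf1r (0.56), and taken singly only 1 of the 9 genes, Cx3cr1, did not overlap. The gap is therefore not a trait of each of the 9 genes. The alveolar macrophage genes ranged from -0.10 to 0.18 in p53-null lungs and from -0.19 to 0.08 in wild-type lungs, and the shared genes from -0.07 to 0.26 in p53-null lungs and from -0.27 to 0.05 in wild-type lungs, and both overlap. The summed markers of other leukocytes were also higher in every p53-null lung than in any wild-type lung. Neutrophil markers had mean levels of 0.12 to 1.49 in p53-null lungs and -1.03 to -0.37 in wild-type lungs, with S100a9 at 2.42 ± 0.28 SE (limma adjusted p = 0.00516). B cell markers ranged from 0.31 to 1.29 in p53-null lungs and from -1.33 to -0.20 in wild-type lungs, with Cd22 at 1.82 ± 0.25 SE (limma adjusted p = 0.0109). T and NK cell markers ranged from 0.09 to 0.59 in p53-null lungs and from -0.74 to 0.05 in wild-type lungs, with Cd3g at 1.14 ± 0.19 SE (limma adjusted p = 0.0161). Dendritic cell markers ranged from 0.14 to 0.34 in p53-null lungs and from -0.48 to 0.05 in wild-type lungs, with Batf3 at 0.97 ± 0.15 SE (limma adjusted p = 0.0126). Several members, such as Csf1r, Cx3cr1, Fcgr4 and Tyrobp, are also expressed by some of these cells, and the part of these cells in the members' differences was not tested.

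**Figure D4:**
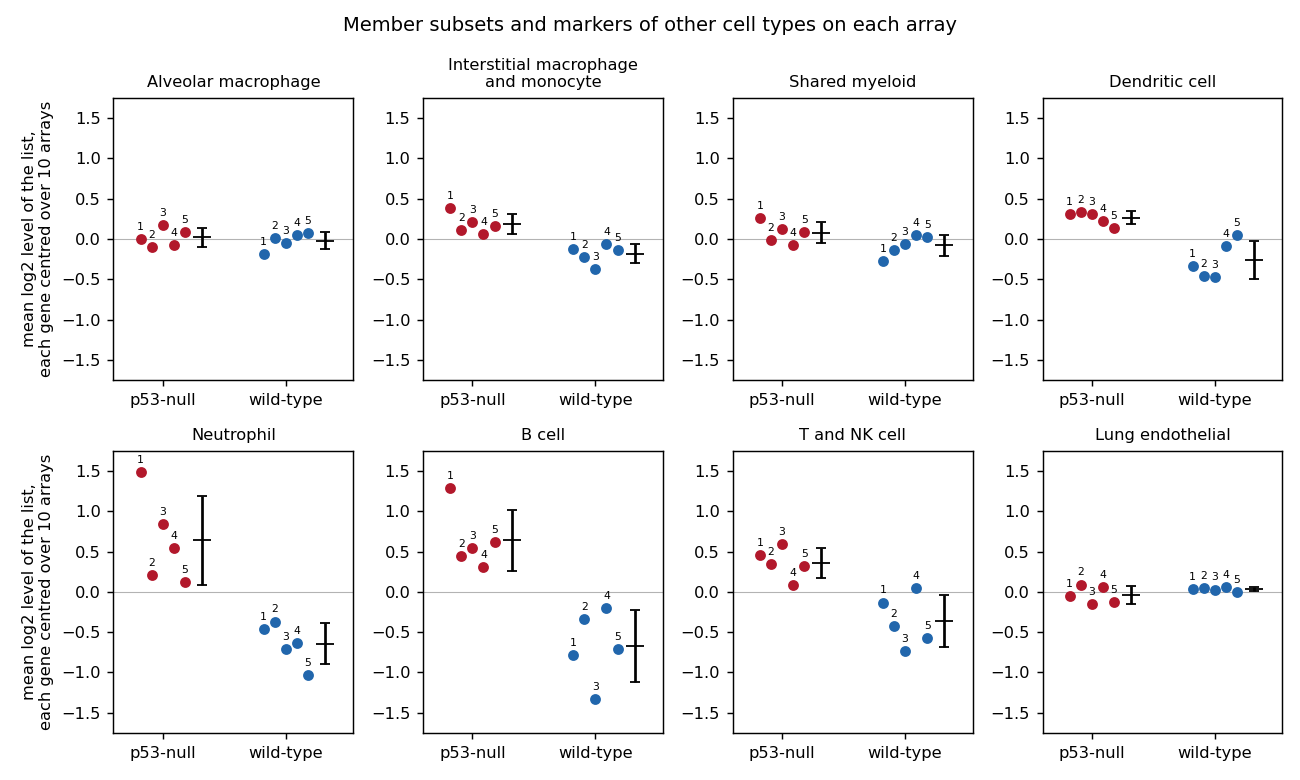
Each point is 1 array, numbered by replicate, with p53-null on the left and wild-type on the right, and gives the mean log2 level of a gene list, each gene centred over the 10 arrays, with the group mean and SD (n = 5) as a bar. The p53-null and wild-type arrays do not overlap for interstitial macrophage and monocyte genes or for neutrophil, B cell, T and NK cell and dendritic cell markers, and overlap for alveolar macrophage, shared myeloid and lung endothelial genes. The mean of the interstitial macrophage and monocyte genes includes the called Cx3cr1 and Csf1r, and of these genes only Cx3cr1 did not overlap by itself.

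Without wild-type array 5 limma called 9 members higher, against 17.1% of all genes tested, and 2 lower, against 14.3%, so that 28.2% of the members and 31.4% of all genes were called. The 9 were Csf1r (0.68), Cx3cr1 (1.19), Car4 (0.60), Fcgr1 (0.55), Cd68 (0.57), Csf2rb (0.43), Lyz2 (0.40), Pparg (0.37) and Cd9 (0.31), and the 2 were Marco (-0.73) and Plet1 (-0.34), all as log2 differences. The calls also rest on the number of arrays: with any 1 of p53-null arrays 2, 3 or 4 or wild-type array 2 left out limma called no member, and unadjusted p under 0.05 was then found for 8 to 13 members, against 22.8 to 24.4% of all genes in those fits. Over the 10 fits that leave out 1 array, Cx3cr1 and Car4 kept their call in 4, Marco in 3 and Csf1r in 1, with differences of 0.92 to 1.26 for Cx3cr1, 0.49 to 0.60 for Car4, -0.93 to -0.69 for Marco and 0.49 to 0.68 for Csf1r.

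Another 47 macrophage and monocyte genes outside the 39 were read beside them, of which 45 could be tested, and their median difference was 0.08. Limma called 3 of the 45 higher, against 4.60% of all genes tested, and 1 lower, against 2.89% of all genes tested. Treml4 (1.18 ± 0.21 SE, adjusted p = 0.0197) and Cd300e (1.15 ± 0.21 SE, adjusted p = 0.0207), receptors that mark patrolling monocytes, and Irf8 (0.62 ± 0.14 SE, adjusted p = 0.0318), a transcription factor of monocytes and dendritic cells, were higher in p53-null lung. Lyve1, which marks a subset of interstitial macrophages and also lymphatic endothelium, was called lower (-0.92 ± 0.15 SE, adjusted p = 0.0149). Ace, a peptidase of endothelium and of patrolling monocytes, was lower in every p53-null lung than in any wild-type lung but missed the threshold (-0.28 ± 0.08 SE, adjusted p = 0.0601). Nr4a1, a factor that patrolling monocytes require, was not called (-0.12 ± 0.21 SE), nor were the growth factors Csf1 (-0.11 ± 0.12 SE), Csf2 (0.08 ± 0.14 SE) and Il34 (0.12 ± 0.11 SE). Siglecf, a surface marker of alveolar macrophages and eosinophils, differed by -0.04 ± 0.18 SE. Atp6v0d2, a proton pump subunit of alveolar macrophages, was lower in every p53-null lung than in any wild-type lung but missed the threshold (-0.71 ± 0.21 SE, adjusted p = 0.0668). Among the 45 genes the groups did not overlap in 3 with p53-null higher and in 3 with p53-null lower. Over all genes tested these shares were 5.45% and 3.88%. Krt79 (0.50 ± 0.19 SE, adjusted p = 0.123) and Bhlhe41 (0.48 ± 0.20 SE, adjusted p = 0.148), which alveolar macrophages also express, were positive and not called.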

How the data were processed

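Whole-lung RNA of 5 p53-null and 5 wild-type mice was put on Agilent arrays in 1 colour, as Cy3-labelled cRNA, per the labels' protocols. The submitters' processing notes name Agilent Feature Extraction 9.5. Per the file headers, the spot intensity used has had its background and its spatial trend removed. The deposited series table holds the same intensities (largest difference 0), before any log2 or 75th percentile step. The deposited flags, which are other values than intensities, mark spots well above background, outliers and saturation, and the share of spots well above background was 71.44 to 83.97%; the number of arrays limits the precision.

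From each of 43379 non-control spots log2 of the intensity minus the array's 75th percentile was taken, outlier-flagged spots were left out, and spots of a probe were averaged. Probes were named by accession (22951), symbol (6659) or synonym (3109) from a RefSeq gene table, or by the file (8455). Of several probes the one of highest mean stands for the gene. All 10 arrays entered lmFit and eBayes of limma 3.58.1 (R 4.3.3), with Benjamini-Hochberg adjustment over all genes. The script was tested on simulated data.

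The members and all gene lists were chosen with earlier results of these data known. Members shown by array are those called, those whose groups do not overlap and the 4 with the smallest p of each subset, and other lists are named by up to 4 called genes with the smallest p, of which fewer are printed. Growth factors, Nr4a1, Siglecf, Ace, Atp6v0d2, Krt79, Bhlhe41 and Fabp4 by array were picked after their values were seen. Slide, scan day, scaling, background correction, probe choice, variance model and left-out arrays were varied. No genome was used, so exons of probes are not given.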

Additional observations from a re-analysis of the deposited data

Results flagged for a closer look

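In 6 of 86 sets of 5 arrays, 1 array stood far from the other 4 by Dixon's criterion, where chance flags about 1 set in 20. In p53-null lungs Fcer1g was 2.35 in array 1, with the next array at 1.90, Trem2 was 0.41 in array 1, with the next at 0.14, and Clec7a was 1.96 in array 4, with the next at 2.19. In wild-type lungs Csf1r was 2.32 in array 5, with the next at 1.72, Cd9 was 5.36 in array 5, with the next at 4.82, and Spi1 was -3.24 in array 4, with the next at -3.76. Without wild-type array 5 the Csf1r difference was 0.68, against 0.56 with it, and that of Cd9 was 0.31, against 0.19.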

How the results depend on the processing

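Every alternative tried kept the direction of Cx3cr1, Csf1r, Car4 and Marco. Members called higher, members called lower and all genes called came to 3, 1 and 1582. They were 2, 1 and 583 with median scaling, 2, 0 and 538 with no filter on dim probes, 1, 1 and 1241 with the mean of a gene's probes, 5, 1 and 2254 with trend and robust variance, 7, 2 and 6410 with array weights, 8, 2 and 5386 without the probe GC trend and wild-type array 5, 0, 0 and 56 at adjusted p under 0.01, and 1, 1 and 800 with at least 1.5-fold. They were 1, 0 and 697 with slide number range blocked, 1, 0 and 322 with scan day (the same fit as without wild-type array 3), 0, 0 and 16 within the lower range, 0, 0 and 0 within the higher range, 0, 0 and 0 with slide as a fixed block, and 0, 0 and 10 without the 3 arrays high in skeletal muscle genes. Those fits hold fewer arrays or fewer residual degrees of freedom, and at unadjusted p under 0.05 the last 4 of limma's fits held 9, 3, 2 and 8 members, against 12.1, 12.3, 5.39 and 16.5% of all genes. The replicate block gave 0, 0 and 26 (unadjusted 8, against 18.9% of all genes), and replicate numbers did not pair the samples. After each gene's group mean was subtracted, correlations of same-numbered arrays were -0.22 to 0.001, and 0 of 5 matched best with their own number. Without that subtraction, arrays of the same group correlated at 0.968 to 0.991. Leaving out 1 array gave 0 to 9, 0 to 2 and 192 to 6618. Medians of all members, alveolar, interstitial and shared genes were -0.095, -0.16, 0.044 and -0.11 with slide as a fixed block, as within the slide holding both groups, and 0.14 to 0.23, 0.08 to 0.22, 0.22 to 0.36 and 0.11 to 0.22 with 1 array left out. Within the higher range they were -0.038 for all members, -0.071 for alveolar and -0.0060 for shared genes, and within the lower range 0.42 for interstitial genes; both ranges were chosen after seeing the data. The causes were not tested. Signals near background limit Cx3cr1's second probe.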

Other observations

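Of 9 fibroblast markers limma called 4 lower in p53-null lung, Col3a1 (-0.94 ± 0.12 SE, adjusted p = 0.00891), Col1a2 (-0.82 ± 0.11 SE, adjusted p = 0.0110), Npnt (-1.04 ± 0.20 SE, adjusted p = 0.0234) and Pdgfra (-0.50 ± 0.13 SE, adjusted p = 0.0494), and none higher. Of 10 alveolar epithelial markers limma called none, and none had an unadjusted p under 0.05 (median -0.04). Skeletal muscle markers were high in p53-null lungs 4 and 5 (mean centred levels 3.35 and 3.23) and wild-type lung 2 (4.27), and negative in the other 7 arrays. Squamous epithelial markers were high in p53-null lung 5 (3.70) and wild-type lung 2 (4.91), and negative in the other 8 arrays. Limma called none of the 9 muscle or 7 squamous markers, and none had an unadjusted p under 0.05.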
